A study of Mus musculus with 32 samples.

Results

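The genes described here encode the proteins of the cytosolic ribosome. They were found by symbol: protein-coding genes whose symbol starts with Rpl or Rps followed by a digit, with Rplp0, Rplp1, Rplp2 and Rpsa, and without Rps6k kinases and without -ps and Gm symbols. Of 52636 gene entries, 93 symbols matched these letters; 5 of them (Rps3a2, Rps3a3, Rps4l, Rps12l1 and Rpl6l) are pseudogenes in RefSeq and were left out, which gave 88 genes. They comprise 46 proteins of the large subunit and 31 of the small subunit (77 canonical genes), 10 paralogs (Rpl3l, Rpl7l1, Rpl10l, Rpl22l1, Rpl32l, Rpl36al, Rpl37rt, Rpl39l, Rps27l and Rps27rt) and Rps19bp1, which binds a ribosomal protein but is not one.

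RNA depleted of ribosomal RNA was sequenced from hybrid mouse embryonic stem cells (ESCs, day 0), kept in medium with serum and LIF, and from induced neurons (iNs, day 10). The iNs were made from ESCs by doxycycline, which switches on the neurogenic transcription factor Neurog2 from a TetO-Ngn2 transgene. The genotype of the controls is given as Mirg(fl/+), a floxed allele. The deletion genotype, Mirg(Delta/+), lacks the miR-379/410 microRNA cluster on the maternal chromosome. There were 4 groups of 3 libraries, lettered A to C. The labels do not say whether libraries came from separate cultures or whether a genotype is 1 clone, so p-values measure the spread between these libraries, and the genotype and the line cannot be told apart.

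A ribosome carries 1 copy of most of these proteins, so cells need them in matched amounts, and their mRNAs are among the most abundant of growing cells. Most of these mRNAs start with a 5′ terminal oligopyrimidine tract, a C followed by pyrimidines, through which mTORC1 and Larp1 govern their translation and stability. Growing and dividing cells make many ribosomes; neurons have left the cell cycle but still translate, also in dendrites and axons.

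The letters at the annotated transcription start show this feature for a part of these genes only. RefSeq promoter windows (GRCm38.p6, the assembly that mm10 denotes) were given for 68 of the 88 genes. A C at the annotated start followed by at least 4 pyrimidines was present in 15 of 68 genes (22.1%), against 3.01% of the 27025 genes with a window; within 5 bases either side of the start it was present in 31 of 68 (45.6%), against 21.2%. The next 8 windows show 10 bases before and 20 from the annotated start, 5′ to 3′, with the pyrimidine run at the start in capitals. The first 5 are canonical genes with such a run, Rps27rt is shown for its likeness to Rps27, and Rpl41 and Rpl10l have no run at the annotated start.
Rps6 (chr4:86857348-86857377, minus strand): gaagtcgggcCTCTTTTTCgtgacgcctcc
Rpl15 (chr14:18270967-18270996, minus strand): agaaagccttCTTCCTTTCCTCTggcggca
Rpl38 (chr11:114668570-114668599, plus strand): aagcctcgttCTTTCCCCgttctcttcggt
Rps10 (chr17:27635225-27635254, minus strand): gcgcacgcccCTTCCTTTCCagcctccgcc
Rps27 (chr3:90213629-90213658, minus strand): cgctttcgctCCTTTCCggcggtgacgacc
Rps27rt (chr9:114982720-114982749, minus strand): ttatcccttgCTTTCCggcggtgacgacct
Rpl41 (chr10:128549149-128549178, minus strand): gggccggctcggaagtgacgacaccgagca
Rpl10l (chr12:66284382-66284411, minus strand): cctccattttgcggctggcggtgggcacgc

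The run stood at the start in 7 of 34 large-subunit genes, 6 of 23 small-subunit genes and 2 of 10 paralogs (Rps27rt and Rpl32l). A second motif, CCGGAAG on either strand, the core bound by ETS factors such as Gabpa, occurred anywhere in the 300 bases of 26 of 68 genes (38.2%), against 9.93% of all genes with a window. TATAAA on either strand occurred in 8 of 68 (11.8%), against 15.7%. The printed letters of Rps27 and Rps27rt look alike from the run on, and counts of such copies are uncertain.

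In ESCs the 88 genes together held 4.784%, 4.48% and 4.382% of all estimated counts in control libraries A, B and C. They held 4.995%, 4.399% and 4.33% in the deletion libraries. In control iNs the shares were 1.303%, 1.44% and 1.272%, and in deletion iNs 1.037%, 1.11% and 1.063%. ESC libraries of both genotypes overlapped, all iN libraries lay below all ESC libraries, and the 3 deletion iN libraries lay below the 3 control iN libraries. Wilson 95% intervals of these shares were at most 0.0199 percentage points wide, for counting error only, so the spread between libraries was far above the counting error.

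Per length, as TPM (a transcript's share of all transcripts after division by its effective length), the same genes made up 8.68% ± 0.31 (SD, n = 3) of control ESC transcripts and 8.58% ± 0.74 of deletion ESC transcripts. They made up 2.56% ± 0.27 in control iNs and 2.24% ± 0.05 in deletion iNs. The ranges in iNs, 2.39 to 2.87% and 2.19 to 2.28%, lay closer together than on the count scale. In these bulk libraries a lower share of ribosomal protein RNA per cell and a different mix of cells cannot be told apart.

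**Figure D1:**
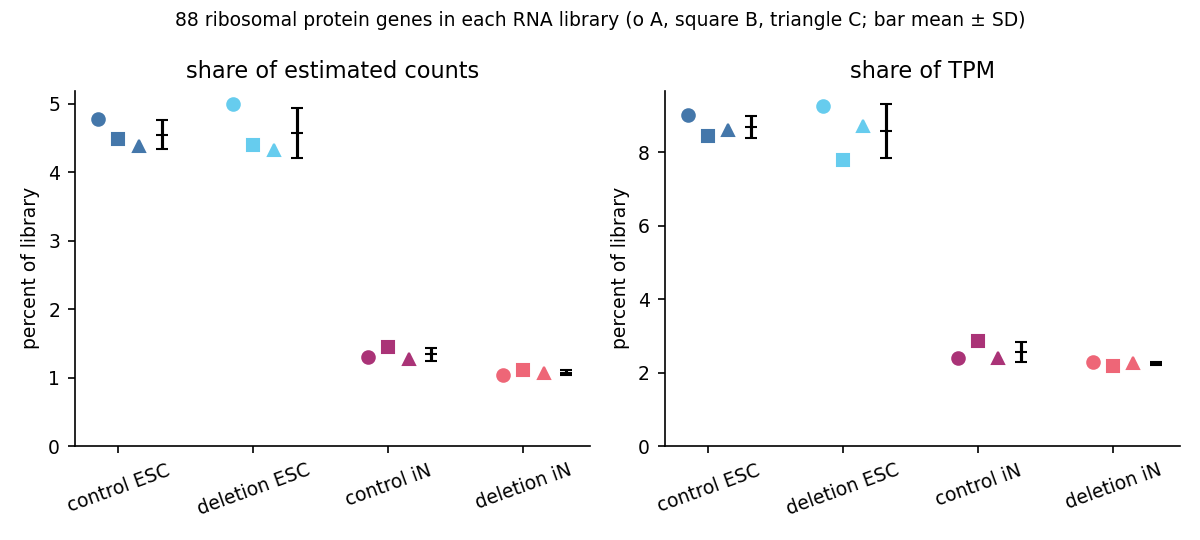
Percent of each RNA library held by the 88 ribosomal protein genes, as estimated counts (left) and as TPM (right), by group; symbols are libraries A to C and bars are mean ± SD, n = 3. All 6 iN libraries lie below all 6 ESC libraries, from 1.037 to 1.44% against 4.33 to 4.995% of counts.

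Libraries held 14904735 to 21499106 counts. The mean fragment length estimated from the deposited effective lengths ran from 177.9 to 242.5 bases, and the shortest of the ESCs were both A libraries (192.7 bases in control and 177.9 in deletion), which also had the highest ribosomal protein shares of their groups. In iNs the ranges of control (191.3 to 236.2 bases) and deletion libraries (194 to 214.4 bases) overlapped; the highest share of the control iNs was in library B, the one with the shortest fragments. Counts of Mirg, the transcript that hosts the cluster, checked the genotype: they were 932, 672 and 789 in control ESCs, 0 in each deletion ESC library, 455, 685 and 648 in control iNs and 2, 0 and 2 in deletion iNs. The 12 pan-neuronal markers summed to 3361 to 4110 TPM in control and 4128 to 4657 in deletion iNs, against at most 144 in ESCs. The 10 pluripotency markers fell from 1253 to 1465 TPM in ESCs to 14 to 17.7 in control and 8.14 to 9.81 in deletion iNs, and the 10 proliferation markers from 943 to 1113 to 15.4 to 20.7. In iNs the 9 glial markers summed to 8.84 to 10.3 TPM in control and 10.4 to 13.5 in deletion libraries, with 7 of 9 under 1 TPM throughout, and the 9 fibroblast markers to 30 to 43.9 and 56.9 to 58.8 TPM, with 6 of 9 under 1 TPM throughout.

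The canonical genes spanned about 1 order of magnitude in level within each group. In control ESCs their mean TPM ran from 268.4 for Rpl37 to 2507 for Rps27, a 9.34-fold range around a median of 983.3. In control iNs it ran from 96.13 for Rpl37 to 972.9 for Rpl41 (10.1-fold) around 258.9, and in deletion iNs from 73.39 to 928.6 for the same genes (12.7-fold) around 239.9. Across the 77 genes, log2 TPM in control ESCs and control iNs correlated with r = 0.857 (a description across genes that share libraries and lengths), and 18 of the 20 highest in one were among the 20 highest in the other. In control ESCs the ratio of the median TPM of large-subunit genes to that of small-subunit genes was 0.873 ± 0.016 (SD, n = 3). It was 0.855 ± 0.027 in deletion ESCs, 0.857 ± 0.020 in control iNs and 0.918 ± 0.012 in deletion iNs. All 3 deletion iN libraries lay above the 3 control iN libraries.

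The 10 genes with the highest mean TPM over all libraries were Rps27, Rpl23a, Rpl41, Rps12, Rps24, Rps29, Rpl13a, Rps21, Rplp1 and Rpl10. In control ESCs Rps27, which has a zinc finger and sits on the small subunit's surface, had 2507 ± 122 TPM (SD, n = 3) and Rpl23a, which lines the exit of the nascent chain tunnel, 2412 ± 7.87, so that their ranges of mean ± SD overlapped. Rps12 had 2466 ± 27.8 TPM there, above Rpl41 with 1955 ± 141, whereas in control iNs Rpl41 had 972.9 ± 125 and Rps12 434.7 ± 34. Rpl41 and Rps24 (1955 ± 63.2 and 959.2 ± 100 TPM) overlapped in both groups. The 5 canonical genes with the lowest levels were Rpl37, Rpl29, Rps3, Rpl35 and Rpl35a; Rps3, which also acts in DNA repair, had 368.3 ± 80.1 TPM in control ESCs and 135.4 ± 27.5 in control iNs. Rpl37 and Rpl29 had 268.4 ± 50.1 and 326.6 ± 25.7 TPM in control ESCs, and their ranges of mean ± SD overlapped. The ranks by TPM depend on the length estimated for each gene. In control ESC library A it was 1519 bases for Rps3 and 867 for Rpl37, against 346.7 for Rps27.

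**Figure D2:**
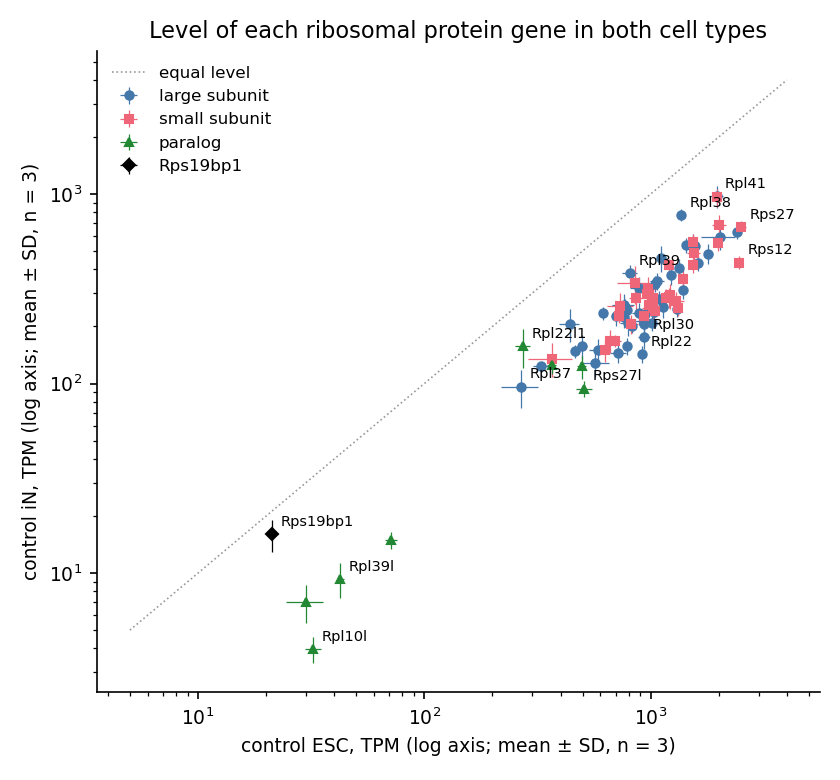
Mean TPM of each ribosomal protein gene in control ESCs (x axis) and control iNs (y axis), both on log axes, with SD over 3 libraries; Rpl3l and Rpl32l, near 0, are not drawn. Every gene drawn lies below the dotted line of equal level; Rps19bp1, Rpl22l1 and Rpl38 lie closest to it and Rpl10l and Rps12 far below.

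The first comparison asks how neuronal induction changes these genes in control cells. After the filter on low counts 86 of the 88 genes could be tested, and 86 fell from ESCs to iNs; of all 17247 genes tested 45.1% fell and 43.9% rose (edgeR quasi-likelihood test, adjusted p under 0.05 over all genes). The median log2 fold change over the 86 was −1.82 (a 3.53-fold lower level), against −0.03 over all genes. All 46 large-subunit genes (median −1.75) and all 31 small-subunit genes (median −1.82) fell, and so did the 8 paralogs tested (median −1.98). The groups did not overlap for any of the 86, but overlap was not counted over all genes tested, so this does not set these genes apart. Rpl32l and Rpl3l were too low to test: Rpl3l, the heart and skeletal muscle form of Rpl3, had 8, 10 and 9 counts in control ESCs and 0 in every iN library, and Rpl32l had 4, 6.66 and 4.02 counts in control ESCs and 0, 0 and 1 in control iNs.

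The canonical genes with the largest falls were Rpl30, Rps12 and Rpl8. Rpl30, a large-subunit protein near the joint with the small subunit, had 480.75, 459.24 and 456.05 CPM (counts relative to the scaled library size) in control ESCs and 84.328, 86.969 and 79.143 in control iNs. Its log2 fold change was −2.48 (SE 0.058, edgeR adjusted p = 4.43e-13). Rps12, a small-subunit protein, had 1011.8, 979.82 and 932.09 CPM in control ESCs and 178.69, 189.51 and 165.95 in control iNs, a change of −2.46 (SE 0.066, edgeR adjusted p = 1.65e-12). Libraries within a cell type were close to each other for both genes, and the gap between cell types was many times their spread. Rpl8, which reaches toward the peptidyl transferase centre, changed by −2.38 (SE 0.059).

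At the other end Rpl38, Rpl41 and Rpl39 had the smallest fitted falls among the canonical genes; they were picked after their values were seen. Rpl38, a large-subunit protein known for its part in the translation of Hox mRNAs in the embryo, had 245.35, 215.52 and 204.89 CPM in control ESCs and 122.48, 154.5 and 133.55 in control iNs. Its log2 fold change was −0.70 (SE 0.091, edgeR adjusted p = 1.05e-05). Rpl41, a very short and basic protein, changed by −0.97 (SE 0.098) and Rpl39, another very short protein, which lines the exit tunnel, by −1.03 (SE 0.084). Within the canonical genes' summed TPM, Rpl38 therefore held 1.61% ± 0.12 (SD, n = 3) in control ESCs and 3.11% ± 0.091 in control iNs, and Rpl41 2.3% ± 0.10 and 3.89% ± 0.25. Rps12 moved the other way, from 2.91% ± 0.13 to 1.74% ± 0.093. The log2 fold changes of the 77 genes went with gene length only loosely (Spearman rho = −0.302 across genes, a description).

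The run at the annotated start did not separate the genes. In the same comparison the 13 canonical genes with the run at the annotated start had a median of −1.73 (range −2.33 to −0.70) and the 44 without it −1.82 (−2.46 to −0.97). With the run sought within 5 bases either side, the medians were −1.78 for 27 genes with it and −1.73 for 30 without it. An annotated start can miss the tract of an mRNA, so whether the tract itself goes with the change was not tested.

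In deletion cells the same comparison gave 86 of 86 tested genes down, with 44.9% of the 17524 genes tested down and 44.6% up (edgeR). The median was −2.19, a 4.57-fold lower level. The 5 largest falls were those of Rpl10l (−3.68, SE 0.11), Rpl30 (−2.91, SE 0.059), Rps27l (−2.83, SE 0.077), Rps12 (−2.79, SE 0.068) and Rpl28 (−2.73, SE 0.066). Rpl38 again moved little among the canonical genes (−1.13, SE 0.10), and so did Rpl41 (−1.29, SE 0.10).

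**Figure D3:**
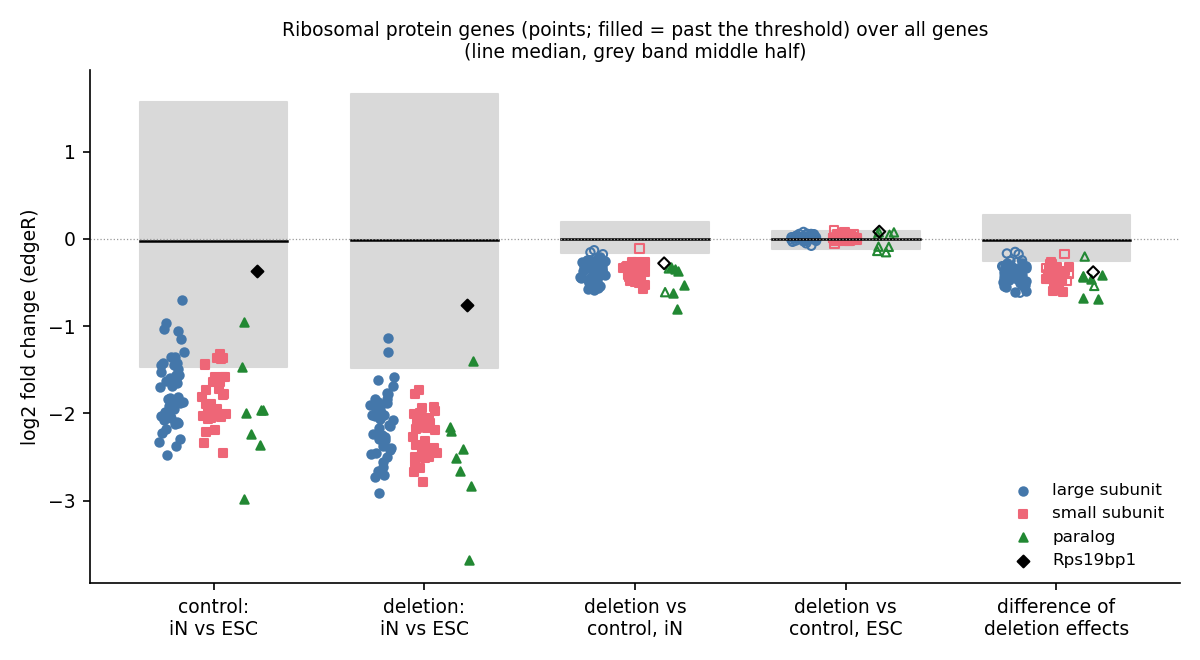
Log2 fold change (edgeR) of each ribosomal protein gene tested in the 5 comparisons; filled points passed the threshold, open points did not, the black line is the median of all genes tested and the grey band their interquartile range. From ESCs to iNs the points centre near −1.82 in control and −2.19 in deletion cells; for the deletion they centre at −0.38 in iNs and 0.01 in ESCs.

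The second question is what the deletion changes. In iNs 79 of the 86 genes tested were lower in deletion than in control libraries and 0 were higher, while of all 16028 genes tested 13.3% fell and 12.4% rose (edgeR). The change was small per gene: the median log2 fold change was −0.38, a 1.3-fold lower level, against 0.00 over all genes, and the 86 values lay between −0.81 and −0.11. Of the large subunit 43 of 46 fell (median −0.36) and of the small subunit 30 of 31 (median −0.40). The groups did not overlap for 77 of the 79, and Rpl41 and Rps28 overlapped. A call makes such a gap likely, and overlap was not counted over all genes tested. The authors' deposited DESeq2 table lists 85 of the genes, with 74 lower and 0 higher (median −0.38), among 2120 genes lower and 1593 higher of 14325.

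Rps20, a small-subunit protein near the head of that subunit, had 169.32, 187.34 and 166.76 CPM in control iNs and 118.8, 131.9 and 124.06 in deletion iNs. Its log2 fold change was −0.48 (SE 0.062, edgeR adjusted p = 4.14e-05). Rpl32, of the large subunit, had 195.49, 209.24 and 166.88 CPM in control and 118.04, 137.65 and 127.71 in deletion iNs, a change of −0.58 (SE 0.078, edgeR adjusted p = 7.19e-05). For both genes the highest deletion library lay below the lowest control library. Rpl37, a zinc-binding protein of the large subunit, changed by −0.59 (SE 0.095, edgeR adjusted p = 0.00032); control library B, at 84.987 CPM, was well above A and C (62.978 and 66.195), and the deletion libraries had 43.622, 50.314 and 48.792. Its near-copy Rpl37rt changed by −0.62 (SE 0.096, edgeR adjusted p = 0.000231). The paralog Rpl10l had the largest fall, −0.81 (SE 0.19, edgeR adjusted p = 0.00634), from 3.2125, 3.9167 and 3.8904 to 2.07, 2.3733 and 1.8766 CPM.

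The 7 genes tested and not called in iNs were Rpl3, Rplp1, Rplp2, Rps9, Rps19bp1, Rpl39l and Rps27rt, named after their values were seen. Rplp1 and Rplp2 form the acidic stalk that recruits elongation factors, with Rplp0 as its base. Rplp2 had 68.667, 76.305 and 67.879 CPM in control and 65.837, 65.24 and 60.255 in deletion iNs (log2 fold change −0.15, SE 0.063, edgeR adjusted p = 0.0877). Rplp1 changed by −0.18 (SE 0.077), while Rplp0, which was called, changed by −0.36 (SE 0.063, edgeR adjusted p = 0.000561). Rps9 had the smallest value, −0.11 (SE 0.060), and Rpl3, which helps to shape the peptidyl transferase centre, −0.13 (SE 0.057). Whether these genes differ from the other canonical genes was not tested.

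**Figure D4:**
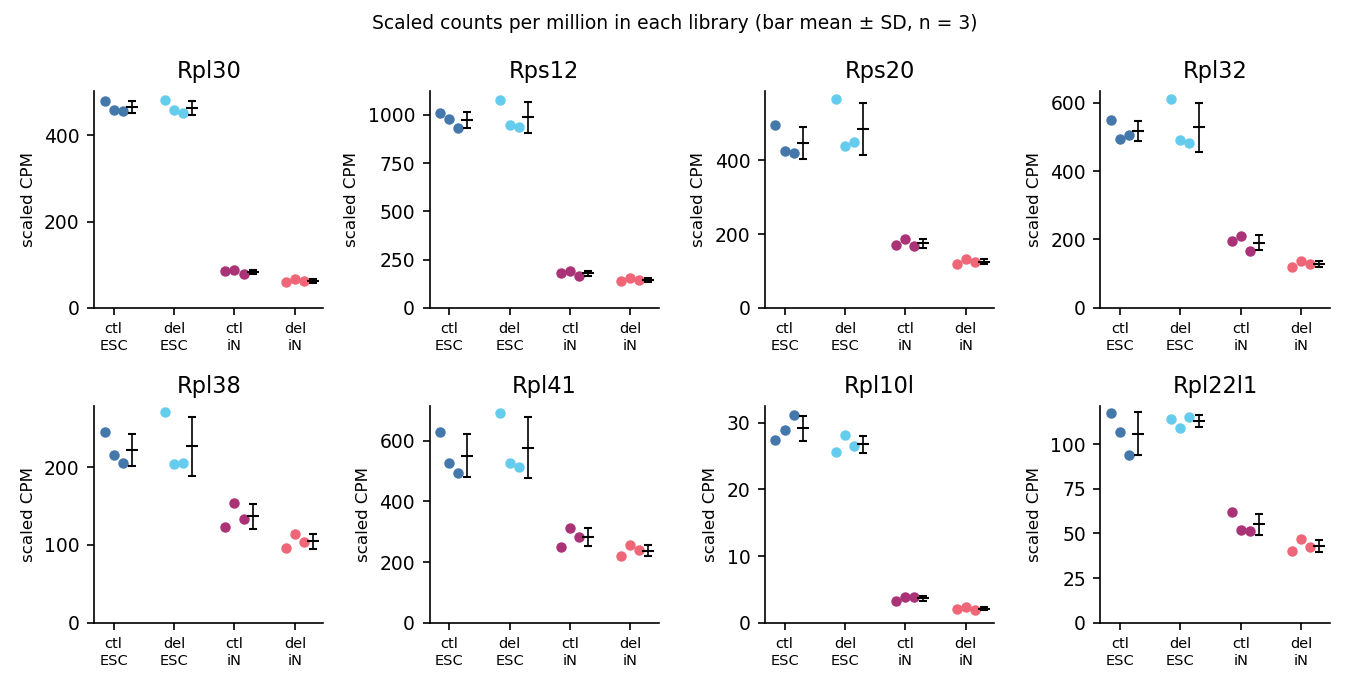
CPM of 8 ribosomal protein genes in each library (points; y axes from 0), with mean ± SD, n = 3, by group (ctl control, del deletion). Rpl30, Rps12 and Rpl10l show the wide gap between ESCs and iNs, Rpl38 and Rpl41 a narrow one, and Rps20 and Rpl32 the separation of deletion from control iNs.

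This result depends on the scale. With limma on log2(TPM + 1), 9 of 86 genes fell and 0 rose, and the median was −0.19; on that scale the median of all genes moved by 0.18, so that relative to all genes the ribosomal protein median was −0.37. The split of all calls moved with it, to 2513 higher and 335 lower, against 1981 and 2128 with counts. With effective lengths as offsets of the count model 80 of 86 fell (median −0.42).

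**Figure D5:**
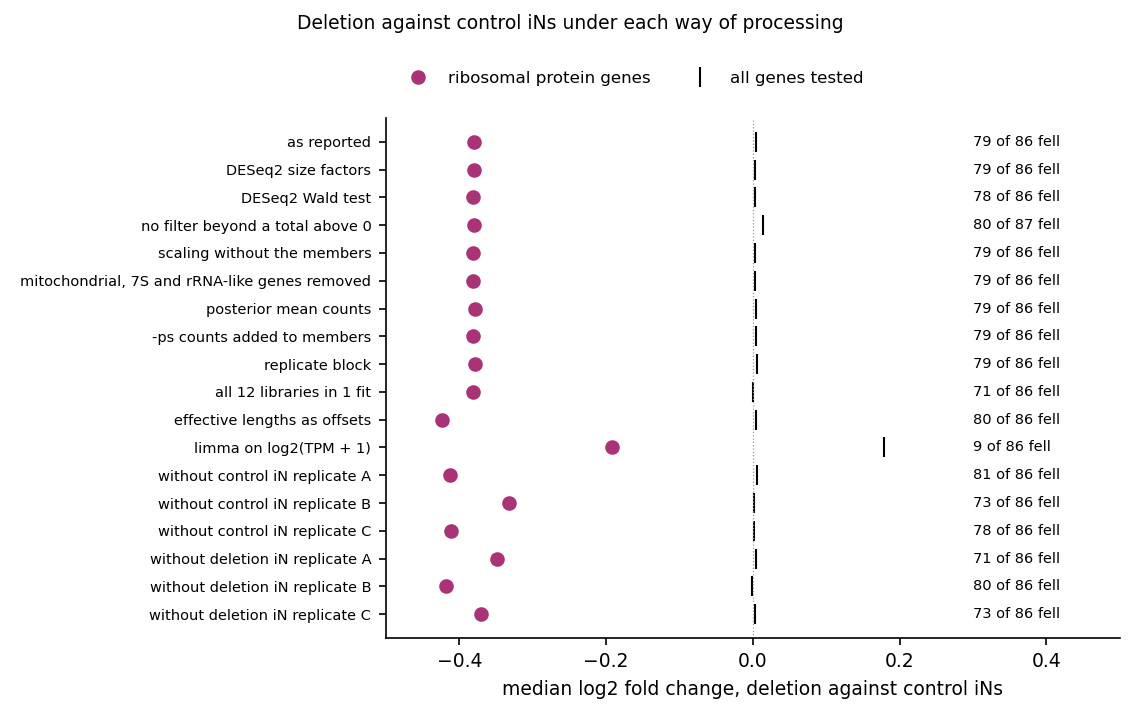
Median log2 fold change of the ribosomal protein genes (circles) and of all genes tested (ticks), deletion against control iNs, under each way of processing, with the number of genes that fell written at the right. The circle lies below the tick in value in each row; on the TPM scale both shift up, and 9 of 86 genes pass the threshold.

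Other measurements moved with the deletion in iNs, and their part in the result was not tested. Neurog2, looked at after the values were seen, had 86.81, 100.7 and 103.9 TPM in control and 343.6, 276.7 and 303.1 TPM in deletion iNs, a log2 fold change of 1.44 (SE 0.062, edgeR adjusted p = 1e-09). Its reads do not tell the transgene from the endogenous gene. Of the pan-neuronal markers 4 of 12 rose and 0 fell, and of the pluripotency markers 0 rose and 4 of the 5 tested fell (edgeR). Of the 9 proliferation markers tested 0 rose and 0 fell. Of the 4 fibroblast markers tested 1 rose, Thy1 (0.48, SE 0.089), and of the 3 glial markers 1 rose, Mbp (0.22, SE 0.069). The summed glial and fibroblast levels given above were higher in all 3 deletion iN libraries than in the control iNs. These sums rest on few genes, as 7 of 9 glial and 6 of 9 fibroblast markers were under 1 TPM in iNs throughout. Thy1 and Mbp were the only called genes of their lists and do not by themselves show fibroblasts or glia in the iNs. Mitochondrially encoded transcripts held 3.425 to 4.376% of counts in control and 2.45 to 3.602% in deletion iNs, which overlapped.

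In ESCs 0 of the 86 genes tested changed with the deletion by the edgeR test, at an adjusted p under 0.05, while 1.37% of the 16185 genes tested rose and 0.544% fell. At an unadjusted p under 0.05 there were also 0 of 86, against 2731 genes in all; DESeq2 called 0 of 86, and so did the authors' deposited table. Same-letter ESC libraries deviated together, most clearly for A, so the replicate letter was also used as a block. With this block 518 genes rose and 501 fell in all, against 221 and 88 without it, and again 0 of 86. The median was 0.01 and the values lay between −0.15 and 0.10. Rpl32 had 550.23, 495.53 and 505.15 CPM in control ESCs and 611.49, 491.06 and 482.42 in deletion ESCs, and the groups overlapped. Rps20 had the highest value of the canonical genes, 0.10 (SE 0.097, edgeR adjusted p = 0.654), with its A library at 567.02 CPM against 438.53 and 450.13 in B and C.

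The difference between both deletion effects was tested in 1 model of all 12 libraries. The effect was lower in iNs than in ESCs for 61 of the 86 genes and higher for 0; of all 18299 genes tested 8.5% were lower and 5.01% higher (edgeR interaction term). These shares stand for 1556 lower and 917 higher genes; without deletion iN library B they were 907 and 856, with 52 of the 86, and with effective lengths as offsets 1012 and 511, with 69 of the 86. The median difference was −0.42, against −0.02 over all genes. Among the largest differences past the threshold were those of Rpl10l (−0.69, SE 0.16), Rpl37rt (−0.68, SE 0.16), Rpl32 (−0.61, SE 0.13, edgeR adjusted p = 0.0063) and Rps20 (−0.60, SE 0.13). On the log2(TPM + 1) scale 1 of 86 passed (median −0.18, with all genes at 0.17 and a split of 1445 higher and 227 lower, against 917 and 1556 with counts). Without both ESC A libraries 67 genes were lower.

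Paralogs are set here beside the canonical genes they resemble; differences between 2 genes' changes were not tested. Rpl22, an RNA-binding protein of the large subunit, had 890.5, 938.04 and 914.68 TPM in control ESCs and 140.92, 159.57 and 129.54 in control iNs. Rpl22l1 had 290.84, 278.79 and 250.16 TPM in control ESCs and 200, 141.2 and 132.44 in control iNs. Their log2 fold changes were −1.87 (SE 0.059) and −0.95 (SE 0.087, edgeR adjusted p = 3.36e-07). In ESCs Rpl22 stood above Rpl22l1 in every library, whereas in control iNs the ranges overlapped. In deletion iNs Rpl22l1 had 128.8 ± 1.06 TPM (SD, n = 3) and Rpl22 121.5 ± 5.81.

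Rpl10l, an autosomal copy of the X-linked Rpl10 that is best known from the testis, was at 32.35 ± 2.54 TPM (SD, n = 3) in control ESCs and 3.98 ± 0.64 in control iNs, while Rpl10 was at 1575 ± 23 and 531.7 ± 45. Its log2 fold change from ESCs to iNs was −2.98 (SE 0.11), against −1.53 (SE 0.057) for Rpl10. Rpl39l, the like copy of Rpl39, was at 42.5 ± 1.57 and 9.32 ± 1.96 TPM and changed by −1.99 (SE 0.12), against −1.03 for Rpl39. Rps27l, the p53-responsive relative of Rps27, had 160.31, 178.34 and 157.33 CPM in control ESCs, 33.999, 33.74 and 28.801 in control iNs and 19.488, 24.63 and 22.57 in deletion iNs. It changed by −2.37 (SE 0.078) with induction and by −0.53 (SE 0.094, edgeR adjusted p = 0.000667) with the deletion in iNs. Rpl36al changed by −1.96 and −0.37 and Rpl7l1, a relative of Rpl7 that acts in ribosome assembly, by −2.24 and −0.32 in the same comparisons, all past the threshold. Rps27rt, at 30.1 ± 5.56 TPM in control ESCs, changed by −1.96 (SE 0.19) and by −0.61 (SE 0.29, edgeR adjusted p = 0.144). Rps19bp1, not a ribosomal protein, fell least of the 86 with induction (−0.36, SE 0.12, edgeR adjusted p = 0.013).

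Copies make some of these counts uncertain. The posterior SD that RSEM gives for a count was 3.78% of the count for Rpl32l, 2.2% for Rps27rt and 1.03% for Rpl37rt and below 1% for the others. The files hold 291 -ps entries of these genes, for 60 of the 88, with 4.413 to 5.184 counts for every 100 counts of the genes themselves; for Rps2 the figure was 77.5 and for Rps13 62.4. Of the pseudogenes left out, Rps3a2 and Rps3a3 fell with induction in control cells (−1.93 and −1.85) and with the deletion in iNs (−0.36 and −0.52). Rps4l, a transcribed pseudogene like Rps4x, fell with induction (−1.45, SE 0.051) and had 1134, 1644 and 1327 counts in control iNs and 1628, 1503 and 1505 in deletion iNs (log2 fold change 0.05, SE 0.055, edgeR adjusted p = 0.582).

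Genes that work with the ribosome give the setting, and their counts stand beside all genes tested, of which 45.1% fell and 43.9% rose with induction and 13.3% fell and 12.4% rose with the deletion in iNs (edgeR). Of the ribosomal proteins outside the symbol rule, Rack1, a scaffold on the small subunit, fell from ESCs to iNs in control cells by 2.13 (SE 0.068) on the log2 scale, and Fau by 1.28 (SE 0.089). Both also fell with the deletion in iNs, by 0.47 (SE 0.063) and 0.28 (SE 0.065). Of 47 ribosome biogenesis factors 47 fell with induction (median −2.07), among them the RNA polymerase I subunit Polr1b (−3.37, SE 0.064) and the rRNA methyltransferase Fbl (−3.30, SE 0.072); with the deletion in iNs 13 fell and 1 rose (median −0.15), Nvl, an assembly ATPase, by −0.59 (SE 0.062). Of 24 other genes listed as having the 5′ tract, elongation factors and noncoding RNAs among them, 23 fell and 1 rose with induction (median −1.79). With the deletion in iNs 10 of them fell and 0 rose (median −0.16), with Tpt1 at −0.44 (SE 0.068). Pooled with the ribosomal proteins outside the symbol rule, 7 of 19 genes with a promoter window had the run at the annotated start.

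Eef1a2, the elongation factor form of mature neurons, moved the other way. It had 28, 20 and 16 counts in control ESCs and 924, 1460 and 1363 in control iNs, a log2 fold change of 5.93 (SE 0.15), and 2573, 2297 and 2248 in deletion iNs, a further 0.80 (SE 0.079, edgeR adjusted p = 3.63e-06). The general form Eef1a1 changed by −1.13 (SE 0.064) and −0.26 (SE 0.056). Of 33 initiation factors 27 fell and 3 rose with induction (median −1.01), and 16 fell and 1 rose with the deletion in iNs (median −0.19). Eif4ebp1, the mTORC1-controlled repressor of cap-dependent translation, fell by 2.77 (SE 0.084) and 1.24 (SE 0.12, edgeR adjusted p = 2.61e-06).

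Of 18 regulators of ribosome synthesis 11 fell and 6 rose with induction, and 3 fell and 4 rose with the deletion in iNs, beside 13.3% and 12.4% of all genes. Mycn, a driver of growth genes in stem cells and progenitors, fell by 2.69 (SE 0.062) and by 0.54 (SE 0.064, edgeR adjusted p = 1.89e-05), and Mxd4, a Max partner that opposes Myc, rose by 2.72 (SE 0.13) and by 0.45 (SE 0.083, edgeR adjusted p = 0.000922). Myc rose with the deletion in iNs (0.35, SE 0.076) and in ESCs (0.44, SE 0.060, edgeR adjusted p = 0.0092). Whether any of these regulators has a part in the changes of the ribosomal protein genes was not tested. Of 78 mitochondrial ribosomal proteins, which build a separate ribosome, 56 fell and 7 rose with induction (median −0.77). With the deletion in iNs 10 of 78 fell, a share near the 13.3% of all genes. However, 0 of 78 rose, against 12.4% of all genes, and the median was −0.09, against 0.004 over all genes.

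Ago2, the protein that carries microRNAs, was mapped on RNA in control iNs by seCLIP, a crosslinking and immunoprecipitation assay, with HA-tagged Ago2 and with untagged Ago2 as control. The deposited list has 22400 unique regions with the authors' log2 fold of the tagged over the untagged immunoprecipitate, with no value per replicate. Regions overlapped 63 of the 88 genes (71.6%), on the gene's strand for the 68 genes whose strand was given and on either strand otherwise, against 37.6% of 13513 other protein-coding genes. The 284 regions over the 63 genes had a median log2 fold of −0.06, with a range from −1.72 to 1.9; over all deposited regions it was −0.13. Of these 284 regions 147 overlapped a small RNA gene that lies within the ribosomal protein gene, such as a snoRNA, and 137 did not. The ribosomal protein genes are short, with a median span of 3179 bases against 25652 for the other genes, and the shares were not matched for level.

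The highest log2 fold, 1.9 (authors' −log10 p of 3.15), lay in Rpl15 at chr14:18268847-18268910 on the minus strand, clear of any small RNA gene, beside a second region at chr14:18268710-18268790 with 1.29 (authors' −log10 p of 2.11). In Rps3 the region at chr7:99482792-99482847, over Snord15a, had 1.62. A log2 fold of at least 1 was found in 10 of 284 regions, and 0 of 88 genes had a region with both a log2 fold and a −log10 p of at least 3, against 1.93% of the other protein-coding genes.

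The authors' table of regions matched to microRNAs of the deleted cluster holds 1 of the 88 genes, Rpl9, matched to miR-369-3p. The mature miRNA, encoded at chr12:109743466-109743486 on the plus strand, is shown because it is the only cluster microRNA the deposited matches tie to a ribosomal protein gene; its seed, bases 2 to 8, is in capitals.
miR-369-3p: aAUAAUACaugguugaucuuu

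The matched region, at chr5:65388777-65388848 on the minus strand, had an authors' log2 fold of 0.31 and a −log10 p of 0.085 in the authors' deposited table, so that the tagged and the untagged immunoprecipitates differed little there. Rpl9, a large-subunit protein at the base of the stalk, had 202.25, 222.73 and 202.07 CPM in control iNs and 164.89, 181.85 and 164.84 in deletion iNs, a log2 fold change of −0.29 (SE 0.060, edgeR adjusted p = 0.00207), and the groups did not overlap. The levels of 78 other genes of the set, which have no deposited match, were also lower in deletion iNs. Whether the matched microRNA acts on Rpl9 was not tested.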

How the data were processed

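RNA-seq of 12 libraries (4 groups of 3) was analysed; small RNA libraries were not used here. Per the labels' protocols, total RNA was depleted of ribosomal RNA with the KAPA RNA HyperPrep Kit with RiboErase. Tools listed, per the submitters' processing notes, are RSEM 1.2.30, STAR 2.4.1d, cutadapt 1.4.2, DESeq2 and SAMtools, with the build mm10. Per the file headers, the deposited gene files hold RSEM's estimated counts, posterior mean counts with their SD, effective lengths and TPM. The authors' DESeq2 tables give a log2 fold change and an adjusted p-value. The deposited Ago2 regions carry the authors' −log10 p and log2 fold. The strand setting and annotation release are not given in the sources used here, so overlapping and near-identical genes are uncertain.

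Estimated counts were rounded and tested with edgeR 4.0.16 (R 4.3.3): normalization by TMM, a low-count filter (filterByExpr, min.count of 10), the quasi-likelihood test, Benjamini-Hochberg adjustment over all genes tested and a threshold of 0.05. Each pair of groups was fitted on its own 6 libraries, and the difference of the deletion effects on all 12. SEs are the absolute log2 fold change divided by the root of F. CPM values are TMM-scaled over all 12 libraries. TPM was compared with limma 3.58.1 on log2(TPM + 1). DESeq2 1.42.0 was an alternative. The edgeR script was tested on simulated data with the same spread for all genes. Of 100 genes with a simulated log2 change of 0.5, 50 to 52 were recovered in the comparisons of 2 groups. In the difference of the deletion effects 18 of 100 were recovered, so many changes of this size can be missed at the simulated spread. The rate for the ribosomal protein genes at their own levels and spread was not simulated.

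Symbols were found for 52435 of 52636 entries, and biotypes, coordinates and sequences came from RefSeq (GRCm38.p6). The genes and the gene lists were chosen with earlier results of these data known; Rpl32l and Rpl37rt joined the paralogs when the files were read. Genes were named as follows: the 5 largest falls in each comparison among called genes whose groups did not overlap, the 5 largest differences of the deletion effect, all paralogs and Rps19bp1, the 10 highest and 5 lowest canonical genes by TPM, the gene with a matched Ago2 region, and up to 3 genes of each other list; exceptions are stated, and some single-gene results are not reported here.

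The replicate letters were checked for pairing by the correlation of same-letter libraries' deviations from their group means. For deletion and control ESCs it was 0.348, 0.107 and 0.136 for A, B and C. The highest correlation with another letter was −0.157, 0.0458 and 0.12. The same letter thus stood out for A, less for B and hardly for C. In the other comparisons the same-letter correlations ran from −0.15 to 0.0358.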

Additional observations from a re-analysis of the deposited data

Results flagged for a closer look

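The deletion effect differed between cell types by the interaction term for 61 ribosomal protein genes, all lower in iNs than in ESCs (edgeR). Among the largest differences, on the log2 scale, were those of Rpl10l (−0.69), Rpl37rt (−0.68), Rpl32 (−0.61) and Rps20 (−0.60). Groups of 3 libraries are too small for a test of single outlying libraries. Rpl10l had at most 3.9167 CPM in iNs, so its value rests on few reads, and Rpl37rt shares sequence with Rpl37.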

How the results depend on the processing

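The count of genes that fell and the median log2 fold change were recomputed for each comparison. From ESCs to iNs, 85 to 88 genes fell in control cells under every alternative run; without a filter on low counts 88 could be tested. Leaving out 1 library gave 85 to 86 falls with medians of −1.90 to −1.74. In deletion cells the range was 86 to 87, and limma on log2(TPM + 1) gave a median of −1.99. For the deletion in iNs, 71 to 81 genes fell when 1 library was left out (medians −0.42 to −0.33) and 71 to 80 under the other count-based alternatives, while limma on log2(TPM + 1) gave 9 and a median of −0.19. For the difference of the deletion effects, 43 to 66 genes were lower with 1 library left out (medians −0.46 to −0.34) and 60 to 79 under the other count-based alternatives; limma on log2(TPM + 1) gave 1 and −0.18. In ESCs 0 genes were called under each alternative run. With the replicate block, 79 genes fell with the deletion in iNs, 0 in ESCs and 60 in the difference; it changed no other count of calls over these genes. Over all genes the ESC comparison gave 221 higher and 88 lower as reported, 518 and 501 with the block, 92 and 38 with effective lengths as offsets, 214 and 135 with DESeq2, 317 and 187 without the filter, 228 and 139 without both ESC A libraries, 1 and 2 with limma on TPM, and 69 to 211 higher and 18 to 104 lower with 1 library left out. In the difference of the deletion effects, 917 genes were higher and 1556 lower as reported, 511 and 1012 with effective lengths as offsets, 581 and 1224 without both ESC A libraries, and 856 and 907 without deletion iN library B. The stricter Ago2 threshold left 0 of 63 genes. Posterior mean counts gave the same library shares. Leaving out both ESC A libraries, the effective length offsets and limma on TPM were chosen after seeing the data. Of 27 single-gene results, 8 lost their call under limma on TPM and Rps19bp1 gained one without control iN library A. Few reads limit the paralogs Rpl32l and Rpl3l, which were not tested, and Rps27rt and Rpl10l.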
